A study of Mus musculus with 6 samples.

Results

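The genes described here were 8 contractile genes of the smooth muscle type, Acta2, Actg2, Tagln, Myl9, Cnn1, Cnn2, Tpm1 and Tpm2, together with Srf, which encodes serum response factor (SRF). They were chosen by name, as the rows of the gene table that carried these symbols, and all 9 were found among 45777 listed genes. RNA was sequenced from 3 tumors grown in the hind footpad and 3 tumors grown in the flank skin of mice, 1 library per tumor. All 6 tumors were grafts of B16F10, a single pigmented melanoma line of mouse origin, and no tumor received a further treatment. The methods say that B16F10 tumor cells were isolated from the sites, with no gate or sort named, whereas the labels say that tumors were removed and their RNA extracted. Host and graft are both mouse, so each value can sum RNA of melanoma cells and of any host cells that were carried along. The sample labels gave the hosts of both sites as Foxn1-/- mice 8 weeks old, which lack mature T cells but keep macrophages, neutrophils, natural killer cells, vessels and fibroblasts. B16F10 grafts in C57BL/6J and in Foxn1-null mice are both described in the study, and its text named no host for the sequenced tumors.

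SRF binds a short DNA element called the CArG box in front of genes for actins and actin-binding proteins. Its cofactors MRTF-A and MRTF-B are held inactive by monomeric actin and enter the nucleus when actin assembles into filaments, whereas cofactors of the ternary complex factor (TCF) family link SRF to growth factor signals and immediate early genes. High levels of the contractile genes mark smooth muscle cells of vessel walls, pericytes and myofibroblasts, the contractile fibroblasts of wounds and tumor stroma, and several of the genes are also used by tumor cells.

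The comparison of footpad with flank asked how RNA levels differed between a site that bears the weight of the body and a site that does not. Libraries held between 46529649 and 66364366 counted reads, and 17210 genes passed the filter on low counts. Levels are given as CPM, which are read counts scaled to the size of each library, and differences as log2 fold changes of footpad over flank with their standard error (SE). A gene was called when the adjusted p of edgeR's quasi-likelihood test was under 0.05 and the fold was 2 or more. The melanocyte markers, 8 of 8 detected in all 6 tumors, summed to between 10067 and 25513 CPM. Footpad replicate 2 stood apart: its 12 skeletal muscle markers summed to 1122 CPM against 11.4 to 202 in the other tumors, and its 10 keratinocyte markers to 449 CPM against 1.6 to 24.4. Results that rest on this tumor are therefore also given without it.

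Of the 9 genes, 8 passed the filter and 1, Acta2, was called, in the direction of a higher level in the footpad. Over all genes tested, 3.76% were called, 2.89% higher in the footpad and 0.872% lower. DESeq2, run on the same counts with the same limits, called 2 of the 9 genes higher, Acta2 and Tpm2, and none lower, beside 6.05% and 1.84% of the genes it tested. Acta2, Tagln, Tpm2 and Srf did not overlap, with each footpad tumor above each flank tumor, which is 4 of the 8 tested genes beside 17.5% of all genes tested. None of the 8 was without overlap in the other direction, beside 14.9% of all genes tested. Myl9, Cnn2 and Tpm1 had fold changes below 0 on the log2 scale, and none of them was called. In bulk RNA, fewer cells of a type and less RNA per cell cannot be told apart.

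**Figure D1:**
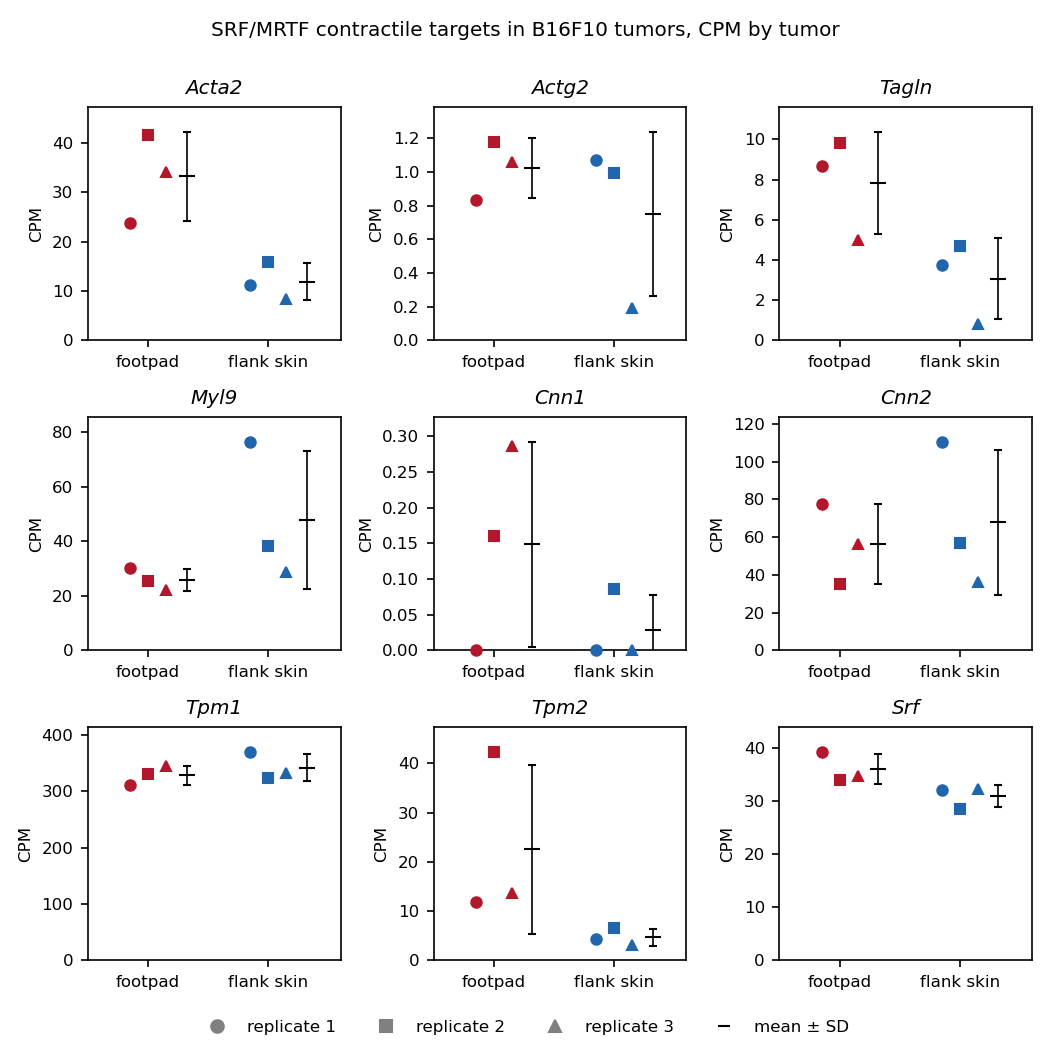
Level of each of the 9 genes in CPM (y axis, from 0, with its own scale in each panel) in the footpad and flank skin tumors (x axis). Each symbol is 1 tumor, its shape gives the replicate number, and the bars are mean ± SD over 3 tumors. Acta2, Tagln, Tpm2 and Srf show no overlap between the sites, and the highest tumor for Myl9 and Cnn2 is flank replicate 1 at 76.5 and 110.4 CPM.

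Windows at the transcription starts were read first for the DNA element that SRF binds. RefSeq promoter windows of GRCm38.p6 were matched by gene ID for 7 of the 9 genes, and Actg2 and Tagln had no entry. Each window covers the 250 bases ahead of a RefSeq start, which can lie inside the span that GENCODE gives the gene. This holds for 217 bases of the Acta2 window, 211 of the Tpm2 window and 193 of the Tpm1 window. It also holds for 44 bases of the Myl9 window, 37 of the Cnn1 window, 16 of the Cnn2 window and 13 of the Srf window. Sequences are printed for the gene that was called (Acta2), for both contractile genes with a CArG box that keeps every fixed base (Myl9 and Cnn2), and for Srf itself. For Myl9, Cnn2 and Srf they end at the GENCODE start and lie at chr2:156775214-156775419 on the plus strand, chr10:79988350-79988583 on the plus strand and chr17:46556176-46556412 on the minus strand. For Acta2, whose boxes lie inside the span that GENCODE gives the gene, each box is shown with 10 bases on either side. These stretches lie at chr19:34255438-34255467 and chr19:34255388-34255417 on the minus strand. Sequences run 5′ to 3′ toward the start, and capitals mark CArG boxes and boxes that depart from the element at 1 base.
Acta2 distal box: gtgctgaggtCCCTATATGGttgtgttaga
Acta2 proximal box: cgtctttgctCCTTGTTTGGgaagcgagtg
Myl9: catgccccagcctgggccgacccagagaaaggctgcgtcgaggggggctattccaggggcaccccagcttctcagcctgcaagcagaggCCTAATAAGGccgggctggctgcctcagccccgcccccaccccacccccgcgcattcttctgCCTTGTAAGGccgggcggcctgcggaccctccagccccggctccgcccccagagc
Cnn2: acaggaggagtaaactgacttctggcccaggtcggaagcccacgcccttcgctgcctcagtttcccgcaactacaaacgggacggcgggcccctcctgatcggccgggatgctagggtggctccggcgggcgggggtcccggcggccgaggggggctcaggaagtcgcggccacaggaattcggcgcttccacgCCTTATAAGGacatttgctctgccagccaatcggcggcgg
Srf: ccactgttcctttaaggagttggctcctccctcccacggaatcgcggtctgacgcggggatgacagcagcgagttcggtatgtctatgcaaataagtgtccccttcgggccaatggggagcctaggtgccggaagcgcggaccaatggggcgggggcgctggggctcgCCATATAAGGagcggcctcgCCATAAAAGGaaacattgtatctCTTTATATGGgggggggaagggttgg

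In these windows Srf held 2 CArG boxes, 82 to 73 and 62 to 53 bases upstream of the RefSeq start, Myl9 held 1 at 161 to 152 bases, and Cnn2 held 1 at 56 to 47 bases. Over 32851 promoter windows of the same length, 1.47% held such a box. Acta2 held 2 boxes with 1 departure each, at 84 to 75 and 34 to 25 bases, a class found in 17.5% of all windows. Tpm1 also held 2 boxes with 1 departure, and the windows of Cnn1 and Tpm2 held neither class, which says only that these letters are absent there. Most of the Tpm2 window lies inside the span that GENCODE gives the gene, so little of the sequence ahead of that span was read. The letters GGAATG were read on both strands as the site of TEAD factors and were present in 12.6% of all windows. They lay 146 to 141 bases ahead of the RefSeq start of Acta2 and 56 to 51 bases ahead of that of Tpm1. Both places are inside the span that GENCODE gives the gene. The 3 genes with a complete CArG box were not called between the sites, and their log2 fold changes, given below, lay between -0.89 and 0.22. These matches are a description of letters and say nothing of binding in the tumors.

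Srf RNA was similar in the 6 tumors. It measured 39.3, 34.1 and 34.7 CPM in footpad replicates 1, 2 and 3, and 32.1, 28.6 and 32.4 CPM in the flank. The lowest footpad tumor lay just above the highest flank tumor. The log2 fold change was 0.22 (SE 0.13, n = 3 per site), with an adjusted p of 0.339 in edgeR, and it stayed between 0.15 and 0.25 when each tumor was left out in turn. Srf lies on chromosome 17 at 46548329 to 46556175 on the minus strand (GENCODE on GRCm38).

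None of the 6 SRF cofactors was called, and their median log2 fold change was 0.63 beside 0.00 over all genes tested. Mrtfa, which encodes the actin-sensing coactivator MRTF-A, measured 26.6, 18.6 and 18.7 CPM in the footpad and 10.5, 13.0 and 12.1 CPM in the flank. These groups did not overlap, and the log2 fold change was 0.84 (SE 0.20, edgeR adjusted p 0.0551). Its paralog Mrtfb had a log2 fold change of 0.68 (SE 0.20, edgeR adjusted p 0.0882), also without overlap. Myocd, the cofactor found in cardiac and smooth muscle, was at 0 to 0.379 CPM in all tumors, had the largest log2 fold change of the list (1.34, SE 1.35) and was near the detection limit. The TCF member Elk1 had the smallest (0.08, SE 0.18).

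Acta2 encodes smooth muscle α-actin, the actin used to identify smooth muscle cells and myofibroblasts. It lies on chromosome 19 at 34241090 to 34255590 on the minus strand and had 10 exon blocks. Acta2 measured 23.8, 41.6 and 34.1 CPM in the footpad tumors and 11.3, 15.8 and 8.39 CPM in the flank tumors. The lowest footpad tumor was above the highest flank tumor. The means were 33.2 ± 8.95 and 11.8 ± 3.71 CPM (SD, n = 3 each), and the fold was 2.81, or a log2 fold change of 1.49 (SE 0.29, edgeR adjusted p 0.0357). The call was sensitive to single tumors although the direction was not. It was between 1.29 and 1.75 across the 6 fits made with a tumor left out, but only the fit without flank replicate 2 kept an adjusted p under 0.05, at 0.0377. The adjusted p was 0.0733, 0.054 and 0.132 without footpad replicates 1, 2 and 3, and 0.0785 and 0.109 without flank replicates 1 and 3. DESeq2 gave Acta2 an adjusted p of 1.7e-05.

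**Figure D2:**
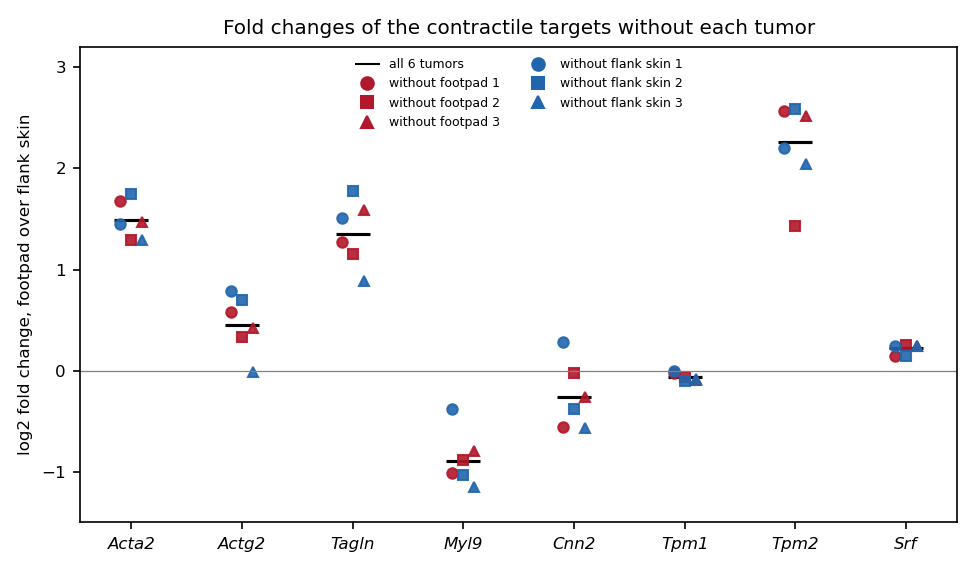
Log2 fold change of footpad over flank (y axis) of each tested gene (x axis) in the fit of all 6 tumors and in 6 fits with a tumor left out (edgeR). Acta2 stays between 1.29 and 1.75, Tpm2 drops to 1.43 without footpad replicate 2, Myl9 moves to -0.38 without flank replicate 1, and Actg2 and Cnn2 cross 0 without a single flank tumor.

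Actg2 encodes the γ-actin of enteric smooth muscle and was low in level. Its reads numbered 37, 81 and 52 in the footpad and 62, 58 and 12 in the flank, which corresponds to 0.831, 1.18 and 1.06 CPM against 1.07, 0.992 and 0.192 CPM. The sites overlapped, and flank replicate 3 was the only tumor below the others, with an exact Poisson 95% interval of 0.0991 to 0.335 CPM that covers counting error only. Footpad over flank, the log2 fold change was 0.45 (SE 0.61, edgeR adjusted p 0.679), and it was -0.01 without flank replicate 3.

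On a scale corrected for transcript length (FPKM), Acta2 made up a small part of the actin RNA of these tumors, in which Actb held 72.4% on average in the footpad and 74.1% in the flank. The share of Acta2 in the summed FPKM of 6 actins was 0.289%, 0.444% and 0.452% in the footpad and 0.129%, 0.191% and 0.093% in the flank. The shares did not overlap, and their means differed by 0.257 percentage points. A two-sided exact permutation test gave p = 0.1, the smallest value that 3 against 3 tumors allow, and 0.25 after adjustment over the 5 families tested. Acta2 and Actg2 shared no stretch of 50 bases, and Acta2 shared 0.326% of such stretches with Actg1.

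Tagln encodes transgelin (SM22α), an actin-binding protein that appears early in smooth muscle. It measured 8.67, 9.84 and 5.0 CPM in the footpad and 3.74, 4.70 and 0.799 CPM in the flank. The sites did not overlap, although the lowest footpad tumor and the highest flank tumor were close. The log2 fold change of 1.35 (SE 0.60) was not called (edgeR adjusted p 0.21), and it ranged from 0.89 to 1.78 with each tumor left out (1.15 without footpad replicate 2). Tagln lies on chromosome 9 at 45929619 to 45936058 on the minus strand. The noncoding gene Gm48529 on the opposite strand covers 62.4% of its exon bases and Pcsk7 covers 5.43%, and no source used here says whether reads were counted by strand, so reads of these genes may have been mixed.

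Its paralog Tagln2, which is expressed far beyond muscle, was called. Tagln2 measured 133.7, 153.3 and 107.1 CPM in the footpad and 33.2, 24.0 and 26.3 CPM in the flank, without overlap. Its log2 fold change was 2.24 (SE 0.19, edgeR adjusted p 0.00677), and 5 of the 6 fits without 1 tumor called it, the exception being the fit without footpad replicate 3, in which the adjusted p was 0.0541. The share of Tagln among the 3 transgelins by FPKM was 5.34%, 5.29% and 3.9% in the footpad and 8.92%, 14.5% and 2.54% in the flank. These shares overlapped (two-sided exact permutation p = 0.4), and the mean share was lower in the footpad although the mean level of Tagln was higher.

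The calponins inhibit the ATPase of myosin on actin. Cnn1, the member most restricted to mature smooth muscle, had 0, 11 and 14 reads in the footpad and 0, 5 and 0 reads in the flank. It did not pass the filter and no fold is given. Footpad replicate 1 and flank replicates 1 and 3, each with 0 reads, had upper limits of 0.0828, 0.0636 and 0.0589 CPM by the exact Poisson 95% interval, and the highest tumor, footpad replicate 3, reached 0.286 CPM (interval 0.156 to 0.48). Cnn1 was therefore at or near the detection limit at both sites.

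Cnn2, the calponin of nonmuscle cells and smooth muscle, measured 77.7, 35.4 and 56.4 CPM in the footpad and 110.4, 56.7 and 36.2 CPM in the flank. The sites overlapped, and the spread within a site was larger than the difference between them. Its log2 fold change was -0.26 (SE 0.43, edgeR adjusted p 0.735) and 0.28 without flank replicate 1. Cnn1 made up at most 0.102% of the summed FPKM of the 3 calponins in any tumor, and its share did not separate the sites (two-sided exact permutation p = 0.4).

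Tropomyosins wind along actin filaments and regulate the access of myosin. Tpm1 was the most abundant of the 9 genes and the least changed. It measured 310.6, 330.7 and 344.0 CPM in the footpad and 369.2, 324.0 and 331.9 CPM in the flank. The sites overlapped, with a log2 fold change of -0.06 (SE 0.13, edgeR adjusted p 0.822). Tpm1 has 21 annotated transcripts, and counts per gene do not separate its muscle and nonmuscle isoforms.

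Tpm2, the β-tropomyosin of skeletal and smooth muscle, had the largest log2 fold change of the 9 genes but was not called. It measured 11.8, 42.3 and 13.6 CPM in the footpad and 4.28, 6.64 and 3.21 CPM in the flank. All footpad tumors were above all flank tumors, and footpad replicate 2 was far above the other footpad tumors. Its log2 fold change was 2.26 (SE 0.54, edgeR adjusted p 0.0562). Without footpad replicate 2 it was 1.43 with an adjusted p of 0.0547, and in the other 5 fits without 1 tumor it was at most 2.59. Tpm2 was called by DESeq2 (adjusted p 1.7e-05) and by edgeR when genes were required to have at least 10 counts in every tumor (adjusted p 0.0412). Tpm2 is also a gene of slow skeletal muscle fibers, and the summed skeletal muscle markers were highest in footpad replicate 2 and, within the flank, in replicate 2 (202 CPM against 11.4 and 34.2). Their part in the Tpm2 result was not tested beyond the fit without footpad replicate 2.

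Within its family, Tpm2 held 1.33%, 4.5% and 1.46% of the summed FPKM of 4 tropomyosins in the footpad and 0.423%, 0.831% and 0.406% in the flank. The shares did not overlap and their means differed by 1.88 percentage points, or by 0.846 without footpad replicate 2. The two-sided exact permutation test gave p = 0.1, its smallest possible value, and 0.25 after adjustment over the 5 families.

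Myl9 encodes the regulatory light chain of smooth muscle myosin, whose phosphorylation switches contraction on. It measured 30.1, 25.3 and 22.2 CPM in the footpad and 76.5, 38.3 and 28.9 CPM in the flank. The sites overlapped by a single pair of tumors, and flank replicate 1 was the highest. The log2 fold change was -0.89 (SE 0.34, edgeR adjusted p 0.163), and it was -0.38 without flank replicate 1. DESeq2 gave an adjusted p of 0.0473 but a fold under the limit of 2. The share of Myl9 in the 3 myosin regulatory light chains by FPKM was 15.6%, 13.1% and 11.3% in the footpad and 28.5%, 20.7% and 15.4% in the flank. These shares overlapped (difference of means -8.22 percentage points, two-sided exact permutation p = 0.2, adjusted 0.333). Counted in reads instead of FPKM the shares did not overlap (p = 0.1 in the same exact test, its smallest possible value).

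**Figure D3:**
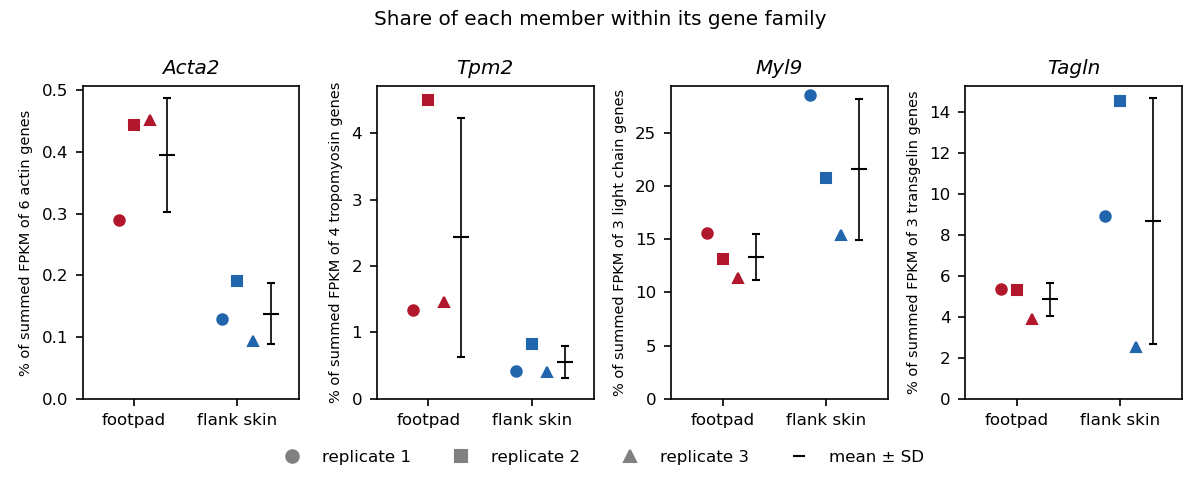
Share of 1 gene in the summed FPKM of its family, in percent (y axis, from 0), for each footpad and flank skin tumor, with mean ± SD over 3 tumors. The shares of Acta2 and Tpm2 do not overlap between the sites, with footpad above flank, and those of Tagln and Myl9 overlap.

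The 9 genes ranged widely in level. Mean FPKM over the 6 tumors was 173 for Tpm1, 30.5 for Cnn2, 29.7 for Myl9, 7.96 for Acta2, 6.78 for Srf, 5.74 for Tpm2, 3.07 for Tagln, 0.597 for Actg2 and 0.0394 for Cnn1. Tpm1 stood clear of the next gene, with its lowest tumor at 149 FPKM and the highest Cnn2 value at 50.7 FPKM. Myl9, at 18.5 FPKM or more, was also clear of Acta2, at 15.3 FPKM or less. The other neighbors in this order overlapped in range over the tumors. The order of the means differed between the sites. In the footpad Acta2 (11.8 FPKM) and Tpm2 (9.42 FPKM) were above Srf (7.19 FPKM). In the flank Srf (6.36 FPKM) was above Acta2 (4.14 FPKM) and Tpm2 (2.06 FPKM). The place of Tpm2 in the footpad rested on replicate 2, with 17.9 FPKM against 7.2 FPKM for Srf. In footpad replicates 1 and 3 Tpm2 was below Srf, at 4.46 and 5.86 FPKM against 7.26 and 7.12 FPKM. Between tumors, the highest FPKM was 13.1 times the lowest for Tagln and 12.4 times for Tpm2, but only 1.23 times for Tpm1 and 1.22 times for Srf.

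The genes did not vary together as a single group. Pearson correlations of log2 CPM over the 6 tumors, which share the site difference, were 0.95 between Acta2 and Tpm2, 0.89 between Actg2 and Tagln, 0.82 between Acta2 and Tagln and 0.74 between Myl9 and Cnn2. After the mean of each site was subtracted they were 0.84, 0.90, 0.63 and 0.86. Acta2 and Myl9 had a correlation of -0.59, or 0.04 after subtraction of the site means. Acta2 and Srf had 0.45, and -0.94 after that subtraction. Footpad replicate 2 was the highest tumor for Acta2, Actg2, Tagln and Tpm2, and flank replicate 3 the lowest for these same 4 genes. Flank replicate 1 was the highest for Myl9, Cnn2 and Tpm1. With 6 tumors these values are a description only.

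Outside the 9 genes, the pattern most like that of Acta2 over the 6 tumors, by Pearson correlation of log2 CPM, was that of Snx30 (0.995), followed by Plb1 (0.993), C130074G19Rik (0.990), Slc38a4 (0.990), Ptpn13 (0.988), Il27ra (0.988), S100a16 (0.987) and Ufd1 (0.985). Of these, Plb1, C130074G19Rik, Ptpn13 and S100a16 were called higher in the footpad, with log2 fold changes of 2.46, 1.79, 3.11 and 1.24. All of the listed genes were picked for following Acta2 over the same 6 tumors, and Acta2 itself separates the sites. A difference between the sites is therefore built into the choice, and these calls are not a separate result. Fits with a tumor left out are not given for these genes. The most opposed patterns were those of Gm14303 (-0.995), Rnu12 (-0.982) and Gm5841 (-0.981). A correlation of 0.9 or more with Acta2 was held by 502 genes, 2.92% of 17200.

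Other known targets of MRTF and SRF gave a mixed picture in which 3 of 25 tested genes were called higher and none lower, with a median log2 fold change of 0.66 beside 0.00 over all genes. Groups did not overlap for 9 genes that were higher in the footpad and 1 that was lower. Over all genes tested, 2.89% were called higher, and 17.5% and 14.9% were without overlap in these directions. Mical2, an enzyme that oxidizes actin and activates MRTF-dependent transcription, measured 29.7, 15.9 and 25.8 CPM in the footpad and 1.81, 5.10 and 2.92 CPM in the flank. This was the largest change among the 3 called targets, with a log2 fold change of 2.86 (SE 0.42, edgeR adjusted p 0.0191). Fhl2, a LIM domain cofactor, measured 6.56, 5.40 and 8.37 CPM in the footpad and 0.828, 1.33 and 0.847 CPM in the flank (log2 fold change 2.75, SE 0.33, edgeR adjusted p 0.0139). Itga5, the α subunit of the fibronectin receptor, measured 124.6, 70.2 and 76.7 CPM against 27.6, 30.4 and 22.9 CPM (log2 fold change 1.75, SE 0.24, edgeR adjusted p 0.0165). None of these 3 genes had overlapping sites. Each of the 3 calls was lost without footpad replicate 1, footpad replicate 3 or flank replicate 3, with edgeR adjusted p values up to 0.0894.

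The list of other targets also contained genes with little difference. Actb and Actg1, the cytoplasmic actins, had log2 fold changes of -0.06 (SE 0.18) and 0.00 (SE 0.18). Cnn3, the calponin that dominated its family in these tumors, had the lowest value of the list at -0.32 (SE 0.15, edgeR adjusted p 0.228), with every footpad tumor below every flank tumor. Fhl1, a LIM domain gene abundant in skeletal muscle, had the largest log2 fold change of the list, 3.98 (SE 0.95, edgeR adjusted p 0.056). Its values of 7.39, 43.7 and 3.94 CPM in the footpad against 0.687 to 1.83 CPM in the flank placed footpad replicate 2 far above the rest, the same tumor in which the muscle markers were highest. Without that tumor its log2 fold change was 2.28 (SE 0.50, edgeR adjusted p 0.0498), past the limits for a call.

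**Figure D4:**
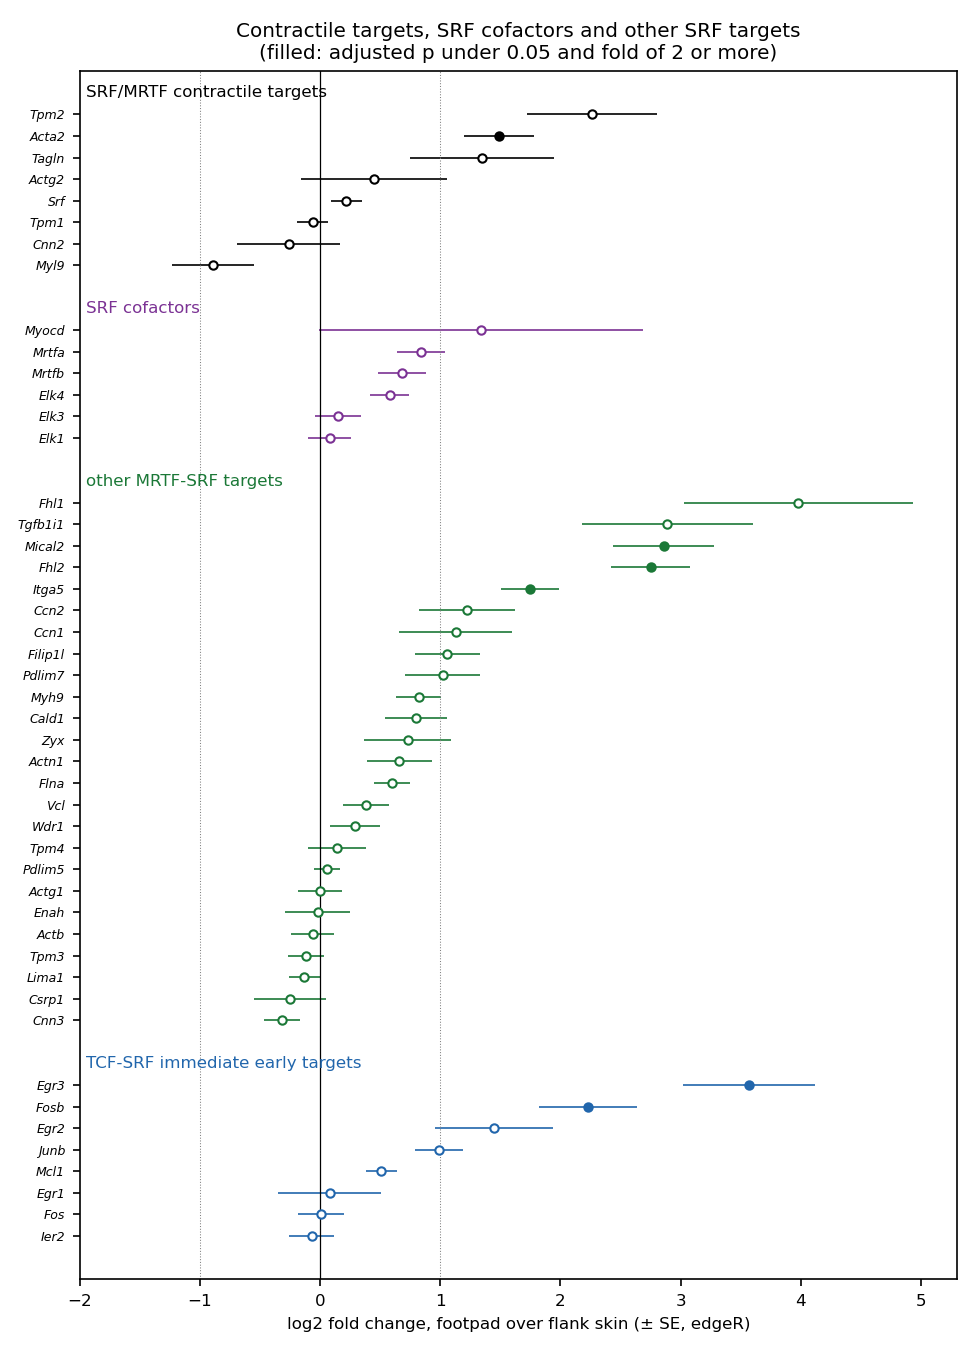
Log2 fold change of footpad over flank (x axis, bars ± SE, edgeR) of the 8 tested members (contractile genes with Srf, without Cnn1), SRF cofactors, other MRTF-SRF targets and TCF-SRF immediate early targets. Filled points passed an adjusted p of 0.05 with a fold of 2 or more: Acta2 among the contractile genes, 3 other targets and 2 immediate early genes.

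Among 8 immediate early genes that SRF regulates with TCFs, 2 were called higher and none lower, with a median log2 fold change of 0.75. Over all genes tested, 2.89% were called higher and 0.872% lower, and the median was 0.00. Egr3, a zinc finger transcription factor, measured 5.21, 1.79 and 1.86 CPM in the footpad and 0.276, 0.274 and 0.192 CPM in the flank (log2 fold change 3.57, SE 0.55, edgeR adjusted p 0.0214). Fosb, a subunit of AP-1, had a log2 fold change of 2.23 (SE 0.41, edgeR adjusted p 0.0321). Single tumors decided both calls: Egr3 was called only without footpad replicate 2 or flank replicate 2 among the 6 fits with a tumor left out, with edgeR adjusted p values up to 0.092 in the others, and Fosb only without footpad replicate 2, with values up to 0.115. The lowest of the list was Ier2, at -0.07 (SE 0.19).

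The cell types that express the contractile genes were read from marker lists. Beside the counts called in each marker list stand the shares over all genes tested, 2.89% called higher and 0.872% lower. Of 9 tested smooth muscle markers, 1 was called higher and none lower, and the list summed to 116, 118 and 99.4 CPM in the footpad and 89.3, 83.0 and 58.5 CPM in the flank. The called gene, Synm, encodes the intermediate filament protein synemin and measured 34.6, 29.8 and 39.8 CPM against 4.97, 7.80 and 6.01 CPM (log2 fold change 2.47, SE 0.22, edgeR adjusted p 0.00677), and its call was lost only without footpad replicate 3 (adjusted p 0.0541). Myh11, the myosin heavy chain that defines smooth muscle, was at 0.673, 3.12 and 3.06 CPM in the footpad and 2.43, 2.87 and 1.01 CPM in the flank. The sites overlapped for Myh11, with a log2 fold change of 0.12 (SE 0.62, edgeR adjusted p 0.921), so no difference was detectable in this marker. Itga8 had the lowest value of the list (-0.89, SE 0.39), and Kcnmb1 did not pass the filter and had 0 reads in at least 1 tumor. Mylk measured 26.0, 23.9 and 23.3 CPM in the footpad and 58.6, 35.9 and 29.8 CPM in the flank. Groups did not overlap for 2 markers that were higher in the footpad and 2 that were lower, Mylk and Itga8. Over all genes tested, these shares were 17.5% and 14.9%. The sums of the list include Synm and were not taken without it.

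Pericyte markers summed to 447, 463 and 454 CPM in the footpad and 281, 297 and 245 CPM in the flank, and 2 of 10 were called higher and none lower. The largest part of this sum was Mcam, a cell adhesion molecule that melanoma cells also express, which held 49.6% to 71.4% of it in each tumor. Without Mcam, left out after its values were seen, the sums were 155, 201 and 164 CPM in the footpad and 142, 85.0 and 75.7 CPM in the flank. Pdgfrb, the receptor by which pericytes and fibroblasts respond to PDGF-B, measured 61.0, 54.2 and 58.9 CPM against 16.2, 23.5 and 18.2 CPM. It did not overlap between the sites, with a log2 fold change of 1.59 (SE 0.17, edgeR adjusted p 0.00984), and the call was lost without footpad replicate 1, footpad replicate 3 or flank replicate 3 (adjusted p up to 0.0702). Cspg4, the NG2 proteoglycan of pericytes and melanoma cells, had a log2 fold change of 1.62 (SE 0.31, edgeR adjusted p 0.0352) and kept its call only without footpad replicate 2 or flank replicate 2, with adjusted p values up to 0.132. Kcnj8, a potassium channel of pericytes, had the lowest of the list at -1.10 (SE 0.48). Endothelial markers, with 3 of 10 called higher (Pecam1, Emcn and Tie1) and none lower, summed to 317 to 356 CPM in the footpad and 177 to 217 CPM in the flank. Pecam1 and Emcn kept their calls only in the fit without footpad replicate 2, and Tie1 without footpad replicate 2 or flank replicate 2, with edgeR adjusted p values up to 0.143 in the other fits. Log2 fold changes of the list ran from -0.52 for Cldn5 to 1.73 for Tek.

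Markers of myofibroblasts did not overlap in summed level. They summed to 3157, 2802 and 4024 CPM in the footpad and 144, 561 and 171 CPM in the flank, and 5 of 9 tested markers were called higher and none lower. Cthrc1, Col1a1, Postn and Col3a1, which encode a secreted collagen regulator, fibrillar collagen chains and periostin, had log2 fold changes of 5.03, 4.10, 4.09 and 4.08, Fap had 2.83, and Adam12 was lowest at -0.68. Fibroblast markers, 5 of 10 called higher and none lower, summed to 789 to 1100 CPM in the footpad and 84.0 to 185 CPM in the flank, with log2 fold changes between 0.30 for Fbln1 and 4.73 for Pi16. The called genes of both lists kept their calls in 1 to 3 of the 6 fits with a tumor left out. Footpad replicates 1 and 3 and flank replicate 3 were the tumors without which none of them was called. Cthrc1, Grem1, Dpt and Pi16 were at 0 reads in at least 1 tumor. Within the flank, replicate 2 had the highest sums of both lists, and it was also the highest flank tumor for Acta2, Tagln and Tpm2. Within the footpad, replicate 2 was the highest tumor for these 3 genes but the lowest in both sums. The part of these cells in the Acta2 result was not tested.

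Markers of other tissues at the sites were unevenly spread. None of 11 tested skeletal muscle markers and none of 6 tested keratinocyte markers was called, and footpad replicate 2 was the highest tumor for 12 of 12 and 10 of 10 of the listed genes. Log2 fold changes ran from 0.39 (Actn3) to 3.74 (Tnni2) for muscle and from 1.62 (Sfn) to 7.0 (Krt10) for keratinocytes, without footpad replicate 2 those of Tnni2 and Krt10 were -0.39 and 2.57, and 5 muscle and 6 keratinocyte markers were at 0 reads in at least 1 tumor. Sweat gland markers summed to 13.6 to 18.8 CPM in the footpad and 14.7 to 22.4 CPM in the flank. Of 6 tested, 1 was called higher, Krt8, at 0.175 to 0.247 CPM against 0 reads in the 3 flank tumors. It rested on 11 or 12 reads in each footpad tumor and was called in 0 of the 6 fits with a tumor left out (edgeR adjusted p 0.0619 to 0.153). Foxc1 was the lowest of the list at -0.66. None of the 8 melanocyte markers was called, and their log2 fold changes ran from -1.14 for Tyr to 0.11 for Sox10. Their sums were 10067, 18637 and 12927 CPM in the footpad and 25513, 14814 and 17069 CPM in the flank. Leaving out footpad replicate 2 moved the log2 fold change of Tyr to -1.81 (SE 0.39, edgeR adjusted p 0.049), past the limits for a lower call. Without footpad replicate 2, the log2 fold change of Acta2 was 1.29 and that of Tagln2 and Synm stayed past the limits.

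**Figure D5:**
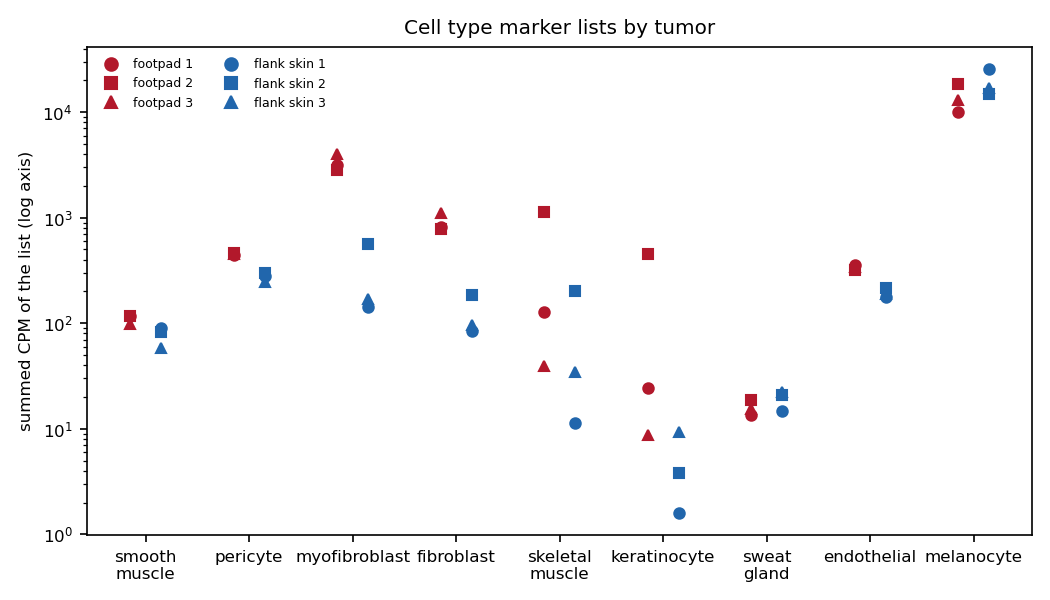
Summed CPM of each cell type marker list (y axis, log scale) in each footpad and flank skin tumor. Myofibroblast and fibroblast sums are higher in all 3 footpad tumors, and skeletal muscle and keratinocyte sums are highest in footpad replicate 2, at 1122 and 449 CPM.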

How the data were processed

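RNA of 3 footpad and 3 flank skin B16F10 tumors was analyzed, grouped by the sample labels. According to the submitters' processing notes and the methods, the authors checked reads with FastQC 0.11.7, trimmed them with Trimmomatic and aligned them to mm10 with HISAT2 2.1.0. The values taken from the deposited tables were unnormalized counts of reads on each gene. FPKM, also deposited, had been corrected by the authors for length of transcript and for sequencing depth. Which program counted the reads, its use of strand and its handling of reads that match several genes are not given in the sources used here. The library kit marks strand. The study describes flank and footpad grafts placed in the same mice at once and counts mice as its replicates, so the tumors of a site probably came from 3 mice and each mouse may have given a tumor to both sites. Nothing in the labels or methods ties a tumor to a mouse, so p-values measure the spread between these samples.

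The quasi-likelihood test of edgeR 4.0.16 was run on the counts (R 4.3.3; TMM, filterByExpr, glmQLFit, glmQLFTest, Benjamini-Hochberg adjustment over 17210 genes; common coefficient of biological variation 0.338). The SE was the log2 fold change divided by the square root of F. CPM used TMM-scaled library sizes, and a prior count of 1 was added before the log for correlations. Family shares used FPKM and two-sided exact permutation tests (scipy 1.17.1). DESeq2 1.42.0 and limma 3.58.1, with log2(FPKM + 1) and log2(FPKM + 0.1), were alternatives, beside other scalings and filters, leaving out each tumor and a replicate block. The fit was tested on simulated data. Coordinates came from GENCODE M21 and sequences from RefSeq (GRCm38.p6).

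The members and gene lists were chosen with earlier results of these data known. Named genes were the 9 members, for each other list up to 4 called genes by size of change and the members with the largest and smallest change, and the 8 genes most and 3 least correlated with Acta2. Others were named after their values were seen: Mrtfa, Mrtfb, Actb, Actg1, Myh11, Mylk, Kcnmb1, Fap, Mcam, Grem1, Dpt and Pcsk7 with Gm48529. A further gene list entered the counts over lists but is not reported here.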

Additional observations from a re-analysis of the deposited data

How the results depend on the processing

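The direction of Acta2, Tagln, Tpm2, Srf and Myl9 was kept in all 14 alternative fits, and Acta2 stayed past its limits in 7 of them, with adjusted p values from 1.7e-05 to 0.132. Actg2 turned to -0.01 without flank replicate 3 (range -0.01 to 0.79 with each tumor left out), and Cnn2 to 0.28 without flank replicate 1 (range -0.57 to 0.28). Of the 9 genes, 1 was called higher; the number was 2 with DESeq2, with at least 10 counts in every tumor and at an adjusted p under 0.1, 0 with limma on log2(FPKM + 1), and 0 to 1 with each tumor left out. Over all genes, 647 were called, and 1561 with DESeq2, 366 with limma on log2(FPKM + 1), 1327 at an adjusted p under 0.1, and 0 to 836 with each tumor left out, the 0 being the fit without footpad replicate 3, in which edgeR still gave 1459 higher and 420 lower genes at an unadjusted p under 0.05 and a fold of 2 or more. Without footpad replicate 1, flank replicate 1 and flank replicate 3 the counts were 31, 308 and 46. Of the genes in the lists outside the 9, 24 were called, 38 with DESeq2, and between 0 and 28 with each tumor left out, and 11 of the 24 were called in 3 or more of these 6 fits. No gene among the 9 was called lower in edgeR or DESeq2. The cause of these shifts was not tested.

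Same-numbered tumors did not deviate together (correlations 0.0544, -0.0965 and -0.115), and 0 of 6 tumors were closest to their own number, so the numbers were not taken to pair the tumors. With a replicate block, edgeR called 0 genes, 0 of the 9 and 0 in the lists, with 1378 higher and 413 lower at an unadjusted p under 0.05 and a fold of 2 or more, and Acta2 had a log2 fold change of 1.5 (adjusted p 0.0778). With 3 tumors per site, a fold as low as that of Srf did not pass the test. Cnn1 was limited by reads, and the fold of Actg2 rested on flank replicate 3.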
